A study of Mus musculus with 4 samples.

Results

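The type I interferon-stimulated genes described here are a list of 36 mouse genes that respond to interferon-alpha and interferon-beta. They were taken by symbol from the gene rows shared by all 4 single-cell matrices, and 35 of the 36, out of 32285 genes in all, have a row; Mx1 is not analysed here. The rows were taken by symbol alone, but the list itself was chosen with earlier results of these data known. The genes were followed in MC38b tumours (MC38 is a mouse colon carcinoma line) taken from mice 24 h after the second of 2 doses. There were 3 groups. The combination group received antibodies against PD-1, an inhibitory receptor of T cells, and against TL1A, a cytokine of the tumour necrosis factor family, and gave 1 library. The anti-PD-1 group received the PD-1 antibody alone and gave 1 library, and the saline group (PBS) gave 2 libraries. All groups carried the same implanted tumour. Mouse strain and age are not given in the sources used here. The study text gives 4 animals for treated groups and 2 for saline and states that suspensions were pooled before sorting, without saying whether a PBS library is 1 animal or a pool.

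Cells were stained for CD45, which marks leukocytes, and for CD3, which marks T cells. They were sorted into CD3+ leukocytes, CD3- leukocytes and CD45- cells, and remixed at 9 to 9 to 2 parts, with 20000 cells loaded. Transcripts were counted as unique molecular identifiers (UMIs), 1 per captured RNA molecule. The deposited matrices held 142600208 UMIs for the combination, 82816801 for anti-PD-1, and 92495603 and 78648222 for PBS 1 and PBS 2. After filtering, 9930, 9917, 6074 and 5509 cells remained in that order. The anti-PD-1 library stood apart in depth, with a median of 3588 UMIs per deposited barcode against 7098 in the combination and 7798 and 7646 in the PBS libraries. It also shared 1255 cell barcodes with PBS 1 and 1778 with PBS 2, and the PBS libraries shared 673 with each other, whereas the combination shared 39 with anti-PD-1, 21 with PBS 1 and 23 with PBS 2. Where a shared barcode held under 10% of the UMIs it held elsewhere, the small copy was removed, which took out 2 cells of the combination, 1606 of anti-PD-1, 145 of PBS 1 and 448 of PBS 2. The counts of called members with these cells kept are given in each class where they moved.

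Type I interferons are made when cells sense foreign or misplaced nucleic acid. They bind the receptor chains IFNAR1 and IFNAR2, and the kinases JAK1 and TYK2 then act on STAT2. With IRF9 it is part of a complex, ISGF3, that binds the interferon-stimulated response element (ISRE) in the promoters of target genes. The products block viral RNA and protein synthesis, tag proteins with ISG15, and feed back on the pathway. In tumours, type I interferon is known for its part in dendritic cell cross-priming of CD8 T cells. Interferon-gamma acts through another element (GAS), and many genes respond to both cytokines.

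The promoters show what the members share in sequence. RefSeq promoters on GRCm38.p6 (250 bases before to 50 after a gene's start) matched 30 of the 36 members. The ISRE core GAAA-NN-GAAA (N is any base), read on either strand, lay before the start of 16 of these 30 members (53.3%), against 3.46% of 27025 genes with a promoter. The longer form GAAA-NN-GAAAC was found in 33.3% of the members and 0.796% of all genes. The GAS core TTC-NNN-GAA was found in 13.3% of the members, against 8.13% of all genes and 52.9% of 17 interferon-gamma-preferring genes. A match describes letters in this window and does not show a bound site. The 5 windows of 60 bases below are from members that the results turn on and that had a match. Ifit2, Irf7 and Isg20 were also meant to be shown but had none. Capitals mark the ISRE core in either orientation, and positions are GRCm38.p6.
Isg15, chr4:156200856-156200915, minus strand: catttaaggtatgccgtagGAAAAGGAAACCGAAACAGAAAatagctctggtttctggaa
Ifit1, chr19:34640769-34640828, plus strand: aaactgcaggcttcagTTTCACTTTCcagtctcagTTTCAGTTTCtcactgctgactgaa
Ifit3, chr19:34583365-34583424, plus strand: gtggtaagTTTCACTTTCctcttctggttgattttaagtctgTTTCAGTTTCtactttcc
Rsad2, chr12:26456538-26456597, minus strand: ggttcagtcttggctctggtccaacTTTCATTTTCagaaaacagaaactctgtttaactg
Oas3, chr5:120777700-120777759, minus strand: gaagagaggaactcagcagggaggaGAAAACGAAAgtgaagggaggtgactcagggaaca
The Isg15 window holds overlapping matches in 1 run, whereas Ifit1 and Ifit3 each hold a pair of separate matches. The core did not match in the window of 14 members, among them Irf7, Irf9, Isg20, Ifih1 and Ifit2. Several members are neighbours: 5 Ifit genes lie on chromosome 19, 5 Oas and Oasl genes on chromosome 5, and 5 members, including Slfn1, Slfn5 and Slfn8, on chromosome 11. For 8 members the counts are uncertain because over 10% of their 31-base words, taken from a transcript's last 500 bases, occur in another gene. These are Ifi206, Ifi213, Ifi214, Ifit1bl1, Ifit3, Oas1a, Oas3 and Slfn8, from 11.3% for Slfn8 (shared with Slfn9) to 71.7% for Ifi214 (shared with Ifi209), with 24% for Ifit3 (shared with Ifit3b).

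In untreated tumours the members were not expressed evenly over cell classes. CPM is a gene's share of all UMIs of a class in a library, on the usual per-million scale. Levels of genes in a class, and their sums, are CPM scaled with TMM factors found within that class (TMM-CPM). Plain CPM, without these factors, is used for plasmacytoid dendritic cells and the other classes too small to test, for clusters and for sums of marker genes. Levels are not compared between genes. Of the 35 members, 15 were highest in neutrophils, 9 in monocytes, 4 in regulatory T cells, 3 in plasmacytoid dendritic cells, 2 in conventional CD4 T cells, and 1 each in conventional dendritic cells (cDCs) and double-negative T cells. These ranks use the PBS mean, and for many members, most of the neutrophil ones among them, the PBS values overlapped with the next class. Herc6 and Trim30a, for example, led in neutrophils by 1.06-fold and 1.08-fold. The 35 members summed to 8706 TMM-CPM in combination neutrophils and 10960 TMM-CPM in anti-PD-1 neutrophils, against 7899 and 5085 TMM-CPM in the PBS libraries, so both treated sums lay above both PBS sums. In NK cells the sum was lower in every library, at 1441 TMM-CPM in the combination and 1350 TMM-CPM in anti-PD-1, against 1273 and 1291 TMM-CPM in PBS. On plain CPM the anti-PD-1 NK sum lay between those of PBS, at 1288, against 1256 and 1340.

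**Figure D1:**
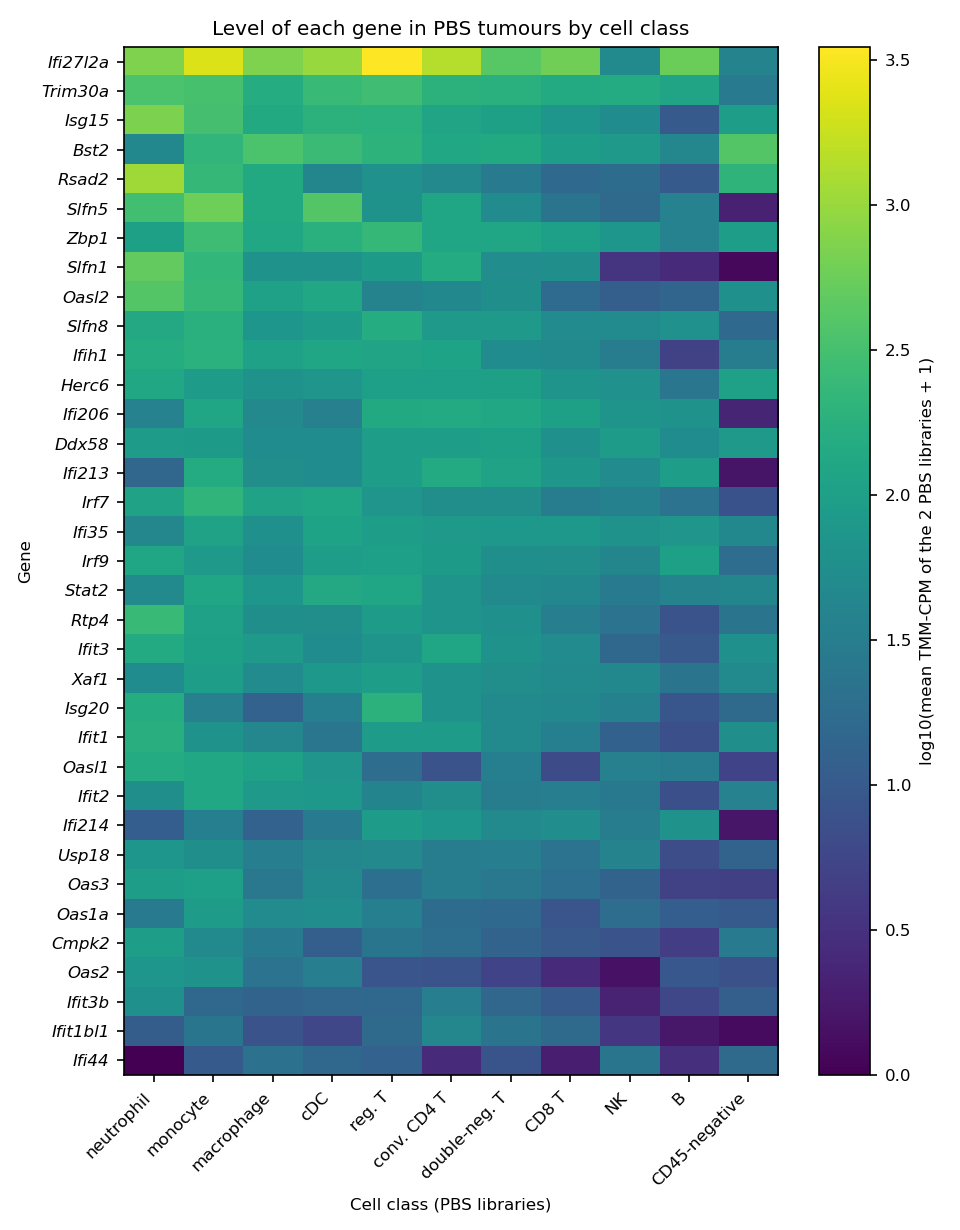
Mean level of each of the 35 members (rows) in each of 11 cell classes (columns) of the 2 PBS libraries, coloured by the log10 of TMM-CPM plus 1. The neutrophil column holds the highest level of 15 members and the monocyte column that of 9, and Slfn1 and Slfn5 are near 0 in the CD45-negative column.

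Isg15, Rsad2, Ifit1 and Ifit3 had their highest baseline in neutrophils. Isg15, a ubiquitin-like protein joined to other proteins, had 919 TMM-CPM in combination neutrophils and 1012 TMM-CPM in anti-PD-1 neutrophils, against 942 and 464 TMM-CPM in PBS. The next class, monocytes, had 327 and 310 TMM-CPM in PBS, so the PBS values of the classes did not overlap. Rsad2 (viperin), an enzyme that makes a chain-terminating nucleotide, had 1042 TMM-CPM in combination neutrophils and 1781 TMM-CPM in anti-PD-1 neutrophils, against 1289 and 923 TMM-CPM in PBS, and its PBS level was 4.80-fold that in PBS monocytes (228 and 233 TMM-CPM). Ifit1, which binds the caps of foreign RNA, had 180 TMM-CPM in combination, 251 TMM-CPM in anti-PD-1, and 232 and 99.2 TMM-CPM in PBS neutrophils. Ifit3, its partner, had 210 and 247 TMM-CPM in the same treated neutrophils, against 202 and 88.5 TMM-CPM in PBS. Both overlapped with the next class, regulatory T cells for Ifit1 and conventional CD4 T cells for Ifit3. The PBS libraries differed by more than 2-fold in neutrophils for Isg15, Ifit1 and Ifit3.

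Irf7, Zbp1 and Ifih1 had their highest baseline in monocytes. Irf7, the factor that drives interferon-alpha genes, had 213 TMM-CPM in combination monocytes and 269 TMM-CPM in anti-PD-1 monocytes, against 212 and 202 TMM-CPM in PBS; cDCs came next at 101 and 148 TMM-CPM in PBS, and CD45-negative cells were lowest at 6.88 and 6.62 TMM-CPM. Zbp1, a sensor of Z-form nucleic acid, had 330 TMM-CPM in combination, 353 TMM-CPM in anti-PD-1, and 280.1 and 279.5 TMM-CPM in PBS monocytes. Ifih1 (MDA5), a sensor of long double-stranded RNA, had 180.1 TMM-CPM in combination, 163 TMM-CPM in anti-PD-1, and 179.6 and 180.2 TMM-CPM in PBS monocytes. PBS neutrophils (193 and 119 TMM-CPM) overlapped with PBS monocytes for Ifih1. Irf9 and Stat2, subunits of ISGF3, were spread more evenly. Irf9 had 140.2 TMM-CPM in combination, 135.2 TMM-CPM in anti-PD-1, and 135.3 and 108 TMM-CPM in PBS neutrophils, and B cells overlapped at 109 and 95.5 TMM-CPM in PBS. Stat2 had 178 CPM in combination, 164.5 CPM in anti-PD-1, and 118 and 203 CPM in PBS plasmacytoid dendritic cells; cDCs came next on the other scale, at 132 and 139.9 TMM-CPM in PBS. Usp18, which removes ISG15 from proteins and damps IFNAR2 signalling, had 58.7 TMM-CPM in combination, 112 TMM-CPM in anti-PD-1, and 91.1 and 53.4 TMM-CPM in PBS neutrophils, and overlapped with monocytes.

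Other members led in lymphoid or plasmacytoid cells. Ifi27l2a had 3356 TMM-CPM in combination regulatory T cells and 5294 TMM-CPM in anti-PD-1 regulatory T cells, against 3908 and 3081 TMM-CPM in PBS. Monocytes came next at 2357 and 2141 TMM-CPM in PBS, and CD45-negative cells were lowest at 36.9 and 38.6 TMM-CPM. Isg20, an RNA exonuclease, had 184 TMM-CPM in combination, 261 TMM-CPM in anti-PD-1, and 196 and 174 TMM-CPM in PBS regulatory T cells, just above PBS neutrophils at 174 and 137 TMM-CPM. Bst2 (tetherin), a surface protein that holds back budding virus and marks plasmacytoid dendritic cells in mice, had 2129 CPM in combination, 2134 CPM in anti-PD-1, and 2236 and 1593 CPM in PBS plasmacytoid cells. The next class in PBS was CD45-negative cells, at 416 and 362 TMM-CPM. Slfn1, a schlafen protein linked to T cell quiescence, had 585 and 391 TMM-CPM in PBS neutrophils and 0.11 and 0.30 TMM-CPM in PBS CD45-negative cells. Slfn5, of the same family, had 524 and 613 TMM-CPM in PBS monocytes and 0.99 and 1.2 TMM-CPM in PBS CD45-negative cells.

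Within several classes the members also differed between clusters, which were built with all interferon genes left out. These levels are sums without Ifi27l2a. A CD8 cluster with Gzmk, Ccl5, Cd8b1 and the member Ifit1bl1 as leading genes had 3493 CPM in the combination and 2707 CPM in anti-PD-1, against 3323 and 3130 CPM in PBS, while the other CD8 clusters lay between 932 and 2071 CPM. Monocytes with Chil3 and Il1b had 6671 CPM in the combination and 7056 CPM in anti-PD-1, against 6844 and 6584 CPM in PBS. Monocytes with Ace had 2834 CPM in the combination and 2235 CPM in anti-PD-1, against 1833 and 2274 CPM in PBS. The difference between these monocyte clusters was larger than any difference between treatments within them.

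Treatments were compared in 10 classes on summed counts with edgeR's quasi-likelihood test across all genes (Benjamini-Hochberg adjusted p under 0.05 is a call). The only replicate spread comes from the 2 PBS libraries, and each treated library was assumed to vary like them. edgeR pools that spread over the genes of a class. The median weight of the pooled value (prior degrees of freedom) stood beside 1 residual degree. It was 11.3 in CD8 T cells, 45.5 in double-negative T cells, 124 in CD45-negative cells and infinite in the other classes tested. Where it was infinite, a typical p-value rests on the pooled spread alone. Elsewhere a typical p-value rests mainly on the pooled spread and little on that gene's own. In each class the spread may be technical. Over 329 pairs of a tested member and a class, 32 were called higher and 0 lower with the combination against PBS. With anti-PD-1 against PBS, 29 pairs were called higher and 2 lower. Over all genes, the share called with the combination ran from 0.0349% in neutrophils to 8.86% in monocytes and macrophages. With anti-PD-1 it ran from 0.105% to 14.7% in the same classes. The pairs called lie mainly in monocytes and macrophages, double-negative T cells and cDCs. Each comparison against PBS uses the same PBS libraries, so the 2 are not independent. No pair of Oas1a, Oas2, Irf9, Bst2, Ddx58, Ifih1, Cmpk2 or Slfn8 was called against PBS. With DESeq2 in place of edgeR the called pairs numbered 1 for the combination and 7 for anti-PD-1.

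**Figure D2:**
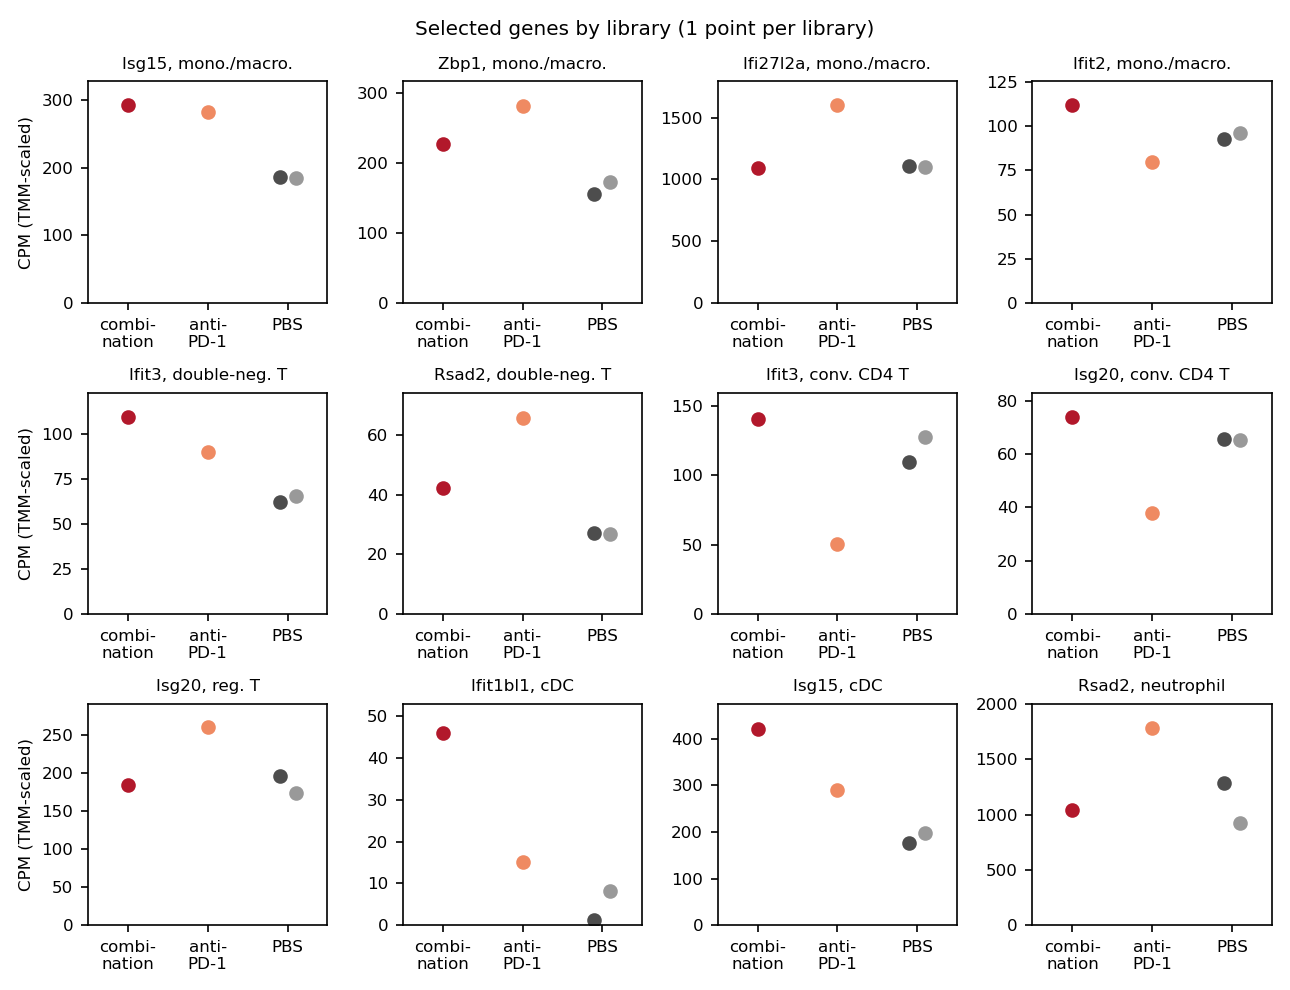
Level of selected members in the class named above each panel (y axis, TMM-CPM), with 1 point per library: combination and anti-PD-1 at the left and the 2 PBS libraries at the right. Isg15 in monocytes and macrophages sits at 292 and 282 with treatment and at 186 and 185 in PBS, and Ifit3 in conventional CD4 T cells is lowest with anti-PD-1, at 50.2.

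In monocytes and macrophages, 12 members rose with each treatment. With the combination 12 of 35 members were called higher and 0 lower, where 8.86% of 14551 genes were called; with anti-PD-1 12 were called higher and 1 lower, where 14.7% of genes were called. The median log2 fold change of the members was 0.21 for the combination and 0.26 for anti-PD-1, against -0.016 and -0.0040 for all genes. Isg15 was called in both comparisons. It had 292 TMM-CPM in the combination and 282 in anti-PD-1, against 186 and 185 in PBS, a log2 fold change of 0.66 ± 0.10 (SE; edgeR adjusted p 4.107e-08) for the combination and 0.61 ± 0.11 (edgeR adjusted p 8.589e-07) for anti-PD-1. Its treated and PBS values did not overlap, as was so for 22 of the 35 members when both treated libraries are set above both PBS libraries; over all genes tested in this class the share was 20.4%.

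The other members with the smallest adjusted p in this class were enzymes, sensors and regulators. Herc6, the mouse ligase that joins ISG15 to proteins, had 108 TMM-CPM in the combination and 85.0 in anti-PD-1, against 61.8 and 79.8 in PBS (combination log2 fold change 0.61 ± 0.10, edgeR adjusted p 2.213e-07). Zbp1 had 227 TMM-CPM in the combination and 281 in anti-PD-1, against 155 and 173 in PBS (anti-PD-1 0.78 ± 0.11, edgeR adjusted p 3.038e-11). Oas3, which makes the oligoadenylates that activate RNase L, had 58.7 TMM-CPM in the combination and 76.8 in anti-PD-1, against 38.6 and 48.6 in PBS (anti-PD-1 0.82 ± 0.11, edgeR adjusted p 8.551e-11). In each of these the treated values lay above both PBS values. The interferon regulator Irf7 was likewise separate. Irf7 had 162 TMM-CPM in the combination and 206 in anti-PD-1, against 129.5 and 138 in PBS (anti-PD-1 0.62 ± 0.10, edgeR adjusted p 1.875e-07). Ifi213, of the Pyhin family of DNA-binding proteins, had 110.5 TMM-CPM in the combination and 90.6 in anti-PD-1, against 77.4 and 80.2 in PBS (combination adjusted p 8.564e-05 by edgeR). Xaf1, a partner of the apoptosis inhibitor XIAP, had 81.8 TMM-CPM in the combination and 73.2 in anti-PD-1, against 59.7 and 61.2 in PBS (combination adjusted p 0.0011 by edgeR). Isg15, Zbp1, Oas3, Oasl2, Slfn1 and Rtp4 were called higher with both treatments. Oasl2 had 173 TMM-CPM in the combination and 202 in anti-PD-1, against 124 and 146 in PBS, and Slfn1 had 125.5 and 140.5, against 100 and 104. The combination alone was called for Herc6, Ifi213, Xaf1, Ifi214, Isg20 and Ifi206, and anti-PD-1 alone for Irf7, Ifi27l2a, Ifi44, Ifi35, Trim30a and Oasl1, which is no test of a difference between the treatments. Ifit3b, an Ifit3 copy, was the member called lower with anti-PD-1, at 11.9 TMM-CPM in the combination and 8.26 in anti-PD-1, against 11.4 and 14.5 in PBS (-0.65, edgeR adjusted p 0.038). Without PBS 1 the log2 fold change of Oas3 with the combination was 0.27, against 0.43 with both PBS libraries, and that of Oasl1 with anti-PD-1 was 0.14, or 0.46 without PBS 2, against 0.29.

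Monocyte and T cell markers differed between the libraries of this class, and their part in the result was not tested. On plain CPM the members summed to 4830 in the combination and 5058 in anti-PD-1, against 4110 and 4483 in PBS. With clusters given equal weights over libraries, the sums lay closer together, at 4759 and 4846 CPM, against 4353 and 4640 CPM. Monocyte markers (4 genes) summed to 2582 CPM in the combination and 2278 CPM in anti-PD-1, against 1793 and 1705 CPM in PBS, and in PBS the members summed to 7138 and 6969 TMM-CPM in monocytes and 3105 and 3437 TMM-CPM in macrophages. Tested separately, monocytes had 0 members called in any comparison, with 7, 5 and 5 at an unadjusted p under 0.05 for combination against PBS, anti-PD-1 against PBS and combination against anti-PD-1 (1.56%, 1.12% and 1.85% of genes called). Macrophages had 8 called higher with the combination (7.29% of genes called) and 10 higher and 2 lower with anti-PD-1 (12.1% of genes called). A term for the difference of the treatment effect between macrophages and monocytes called 0 members for either treatment (edgeR; 4 and 3 at an unadjusted p under 0.05). Within macrophages, Isg15 had 236 TMM-CPM in the combination and 237 in anti-PD-1, against 141 and 143 in PBS. T cell markers (6 genes, 0 of them at 0 in every library) summed to 242 CPM in the combination and 52.5 CPM in anti-PD-1, against 82.4 and 74.6 CPM in PBS. Without the cells that held a T cell receptor or CD3 UMI (26.3% of cells in the combination, 12.9% in anti-PD-1, 13.2% and 17.3% in PBS), 4 members were called higher with the combination and 7 higher and 2 lower with anti-PD-1, where 2.24% and 6.75% of 13726 genes were called. The median log2 fold change of the members was then 0.24 for the combination and 0.13 for anti-PD-1, with 30 and 25 of the 35 above 0. With no filter on low counts, 0 members were called in either comparison. DESeq2 called 1 and 6.

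Between the treated libraries, monocytes and macrophages differed in both directions. Set against anti-PD-1, the combination library had 3 members higher (Ifit2, Ifi214 and Herc6) and 4 lower (Ifi27l2a, Oas1a, Oas3 and Irf7), where 10.2% of genes were called. This compares those libraries, not the conditions. Ifit2, an RNA-binding partner of Ifit1, had 112 TMM-CPM in the combination and 79.8 in anti-PD-1, with 92.7 and 96.2 in PBS (0.49, edgeR adjusted p 0.0023). Ifi27l2a had 1089 TMM-CPM in the combination and 1603 in anti-PD-1, with 1105 and 1100 in PBS (-0.56, edgeR adjusted p 0.014). Oas1a had 53.4 TMM-CPM in the combination and 71.3 in anti-PD-1, with 60.2 and 56.6 in PBS (-0.42, edgeR adjusted p 0.020). For Ifit2 and Oas1a the PBS values lay between the treated ones. Without the cells that held a T cell receptor or CD3 UMI 1 member was called (0.969% of genes called), and with repeated barcodes kept 2. In macrophages alone 2 were called higher and 2 lower (8.54% of genes called).

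**Figure D3:**
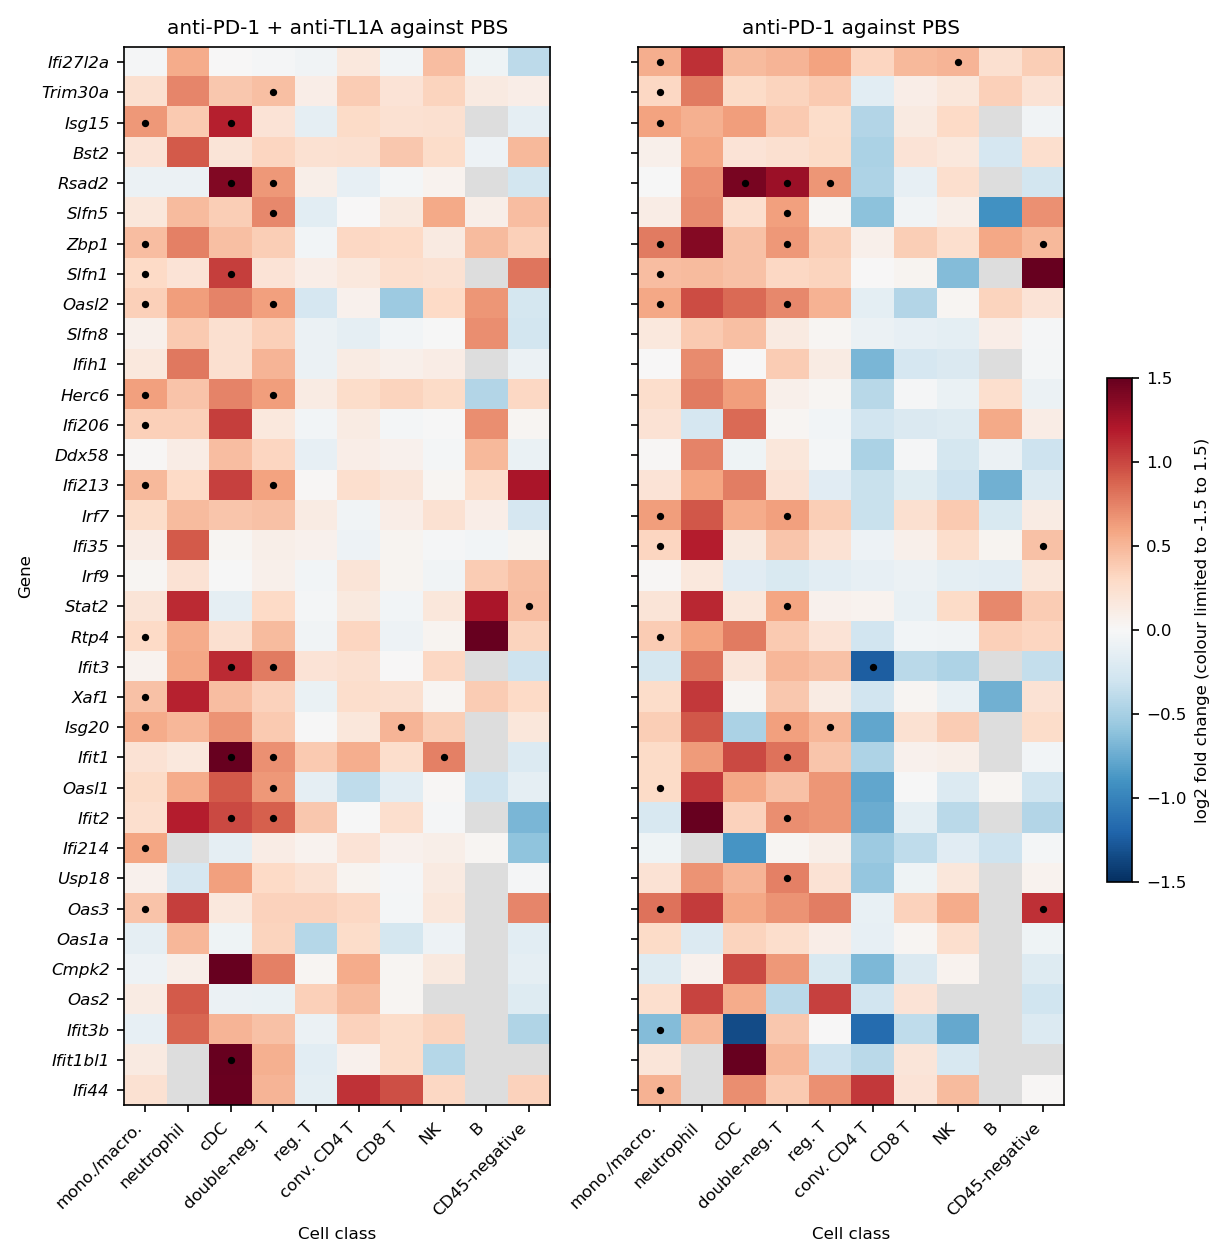
Log2 fold change of each member (rows) in each cell class (columns), combination against PBS at the left and anti-PD-1 against PBS at the right. Dots mark adjusted p under 0.05 by edgeR and grey cells were not tested. Dots gather in monocytes and macrophages, double-negative T cells and cDCs, and conventional CD4 T cells are mostly below 0 with anti-PD-1.

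Double-negative T cells, whose clusters lay under the thresholds for both Cd8a and Cd4 and which carried Trdc, had the largest count of called members among the T cells. With the combination 10 of 35 members were called higher and 0 lower, where 2.42% of 11991 genes were called. With anti-PD-1 10 were called higher and 0 lower, where 1.21% were called, and 5 members (Ifit1, Ifit2, Oasl2, Rsad2 and Slfn5) were called with both. Both treated libraries lay above both PBS libraries for 28 of 35 members, against 18.3% of all genes tested, and the median log2 fold change was 0.40 for each treatment against -0.014 and -0.010 for all genes. Ifit3 had 109.6 TMM-CPM in the combination and 90.1 in anti-PD-1, against 62.4 and 65.7 in PBS (combination 0.78 ± 0.13, edgeR adjusted p 0.00031). Ifit2 had 57.0 TMM-CPM in the combination and 49.6 in anti-PD-1, against 29.6 and 31.6 in PBS (combination 0.90 ± 0.16, edgeR adjusted p 0.00072). Rsad2 had 42.4 TMM-CPM in the combination and 65.6 in anti-PD-1, against 27.3 and 26.7 in PBS (anti-PD-1 1.28 ± 0.18, edgeR adjusted p 8.559e-06). The treated values of these antiviral effectors were separate from PBS.

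Effectors and regulators were both among the calls in double-negative T cells. Ifit3, Herc6, Ifi213, Oasl1 and Trim30a were called with the combination alone, and Zbp1, Usp18, Irf7, Isg20 and Stat2 with anti-PD-1 alone. Ifit1 had 78.3 TMM-CPM in the combination and 85.3 in anti-PD-1, against 45.5 and 51.9 in PBS (edgeR adjusted p 0.0034 and 0.0023). Herc6 had 157 TMM-CPM in the combination and 107 in anti-PD-1, against 94.7 and 109 in PBS (combination adjusted p 0.0020 by edgeR), so its anti-PD-1 value lay within the PBS range. Ifi213 had 166.5 TMM-CPM in the combination and 127.5 in anti-PD-1, against 103 and 116 in PBS (combination adjusted p 0.0021 by edgeR). Its treated values were both above PBS, as were those of Slfn5. Slfn5 had 83.8 TMM-CPM in the combination and 78.2 in anti-PD-1, against 57.6 and 43.6 in PBS, and was called with both. Usp18 had 39.2 TMM-CPM in the combination and 53.6 in anti-PD-1, against 30.9 and 32.9 in PBS (anti-PD-1 adjusted p 0.020 by edgeR). Irf7 had 75.0 TMM-CPM in the combination and 84.4 in anti-PD-1, against 54.7 and 56.0 in PBS (anti-PD-1 adjusted p 0.027 by edgeR). The regulators Usp18 and Irf7 were highest with anti-PD-1, and the sensor Zbp1 was as well. Zbp1 had 157.5 TMM-CPM in the combination and 190.3 in anti-PD-1, against 126 and 117 in PBS (anti-PD-1 adjusted p 0.0028 by edgeR). Oasl2 had 86.5 TMM-CPM in the combination and 93.3 in anti-PD-1, against 56.8 and 56.2 in PBS, and was called with both. No member of this class was called between the treated libraries (edgeR; 6 at an unadjusted p under 0.05, 0.6% of genes called). NK markers (6 genes) in this class summed to 861 CPM in the combination and 812 CPM in anti-PD-1, against 752 and 698 CPM in PBS, and their part in the result was not tested. When interferon genes were kept in the clustering, which changes the cells of the class, 0 members were called with either treatment, and DESeq2 called 0. With repeated barcodes kept, the combination had 7 members called, anti-PD-1 4, and 1 was called between the treated libraries.

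In cDCs 7 of 35 members were called higher with the combination and 0 lower (1.18% of 8413 genes called), and 1 higher with anti-PD-1 (0.737% of genes called). Ifit1bl1, an Ifit1-like gene, had 46.0 TMM-CPM in the combination and 15.2 in anti-PD-1, against 1.22 and 8.23 in PBS (combination 3.17 ± 0.56, edgeR adjusted p 7.472e-06). Isg15 had 421 TMM-CPM in the combination and 290.4 in anti-PD-1, against 177 and 197.5 in PBS (combination 1.17 ± 0.23, edgeR adjusted p 0.00014). Rsad2 had 112 TMM-CPM in the combination and 115 in anti-PD-1, against 21.9 and 61.7 in PBS, and was called with both (edgeR adjusted p 0.0013 and 0.0021). In all of these both treated values exceeded both PBS values. Ifit1 had 72.8 TMM-CPM in the combination and 48.4 in anti-PD-1, against 12.2 and 35 in PBS (combination adjusted p 0.0024 by edgeR). Ifit3 had 117 TMM-CPM in the combination and 60.8 in anti-PD-1, against 28.0 and 77.2 in PBS (combination adjusted p 0.022 by edgeR). The PBS values of Ifit3 lay on both sides of the anti-PD-1 value. Slfn1 had 132 TMM-CPM in the combination and 87.1 in anti-PD-1, against 48.8 and 78.2 in PBS, and Ifit2 had 153 and 98.2, against 42.7 and 109.0 (combination adjusted p 0.029 and 0.031 by edgeR). PBS 1 and PBS 2 were far apart for these genes: without PBS 1 the combination log2 fold change was 2.33 for Ifit1bl1, 0.85 for Rsad2, 1.03 for Ifit1, 0.59 for Ifit3 and 0.49 for Ifit2, and without PBS 2 it was 4.28, 2.29, 2.46, 2.01 and 1.81 in that order. For Rsad2 with anti-PD-1 it was 0.89 without PBS 1 and 2.32 without PBS 2. The class held 101 cells in the combination, 120 in anti-PD-1, and 76 and 78 in PBS. Monocyte markers (4 genes) summed to 2104 CPM in the combination and 1429 CPM in anti-PD-1, against 1719 and 1458 CPM in PBS, and their part in the result was not tested. Without doublet removal 1 member was called with the combination, with repeated barcodes kept 2, and with DESeq2 0; with repeated barcodes kept, anti-PD-1 had 0. For the combination against anti-PD-1, 0 were called (edgeR; 7 at an unadjusted p under 0.05, 0.475% of genes called).

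In conventional CD4 T cells most members lay below PBS with anti-PD-1, and 1 of them passed the test. The median log2 fold change of the members was -0.34 for anti-PD-1 and 0.19 for the combination, against -0.012 and -0.0063 for all genes, and 5 of 35 members were above 0 with anti-PD-1. Ifit3 had 140.5 TMM-CPM in the combination and 50.2 in anti-PD-1, against 109.6 and 128 in PBS. Its anti-PD-1 level was below all 3 other libraries, with a log2 fold change against PBS of -1.24 ± 0.22 (edgeR adjusted p 1.896e-05). It was the one member called with anti-PD-1 (0.324% of 11107 genes called). With the combination against PBS 0 were called (edgeR; 2 at an unadjusted p under 0.05, 0.306% of genes called). Between the treated libraries 4 members were higher in the combination, where 0.396% of genes were called: Ifit3 (1.49 ± 0.23, edgeR adjusted p 5.077e-07), Ifit3b, Ifit1 and Isg20. Ifit3b had 40.9 TMM-CPM in the combination and 14.5 in anti-PD-1, with 29.3 and 35 in PBS. Ifit1 had 128.0 TMM-CPM in the combination and 63.2 in anti-PD-1, with 80.2 and 94.7 in PBS (1.02, edgeR adjusted p 0.0038). Isg20 had 73.7 TMM-CPM in the combination and 37.9 in anti-PD-1, with 65.8 and 65.0 in PBS (0.96, edgeR adjusted p 0.049). For these 4 genes anti-PD-1 was the lowest of the 4 libraries. Of the cells of this class, 56.6% held a Cd4 UMI in the combination and 41.4% in anti-PD-1, against 60.8% and 62.9% in PBS. A Cd8a or Cd8b1 UMI was held by 18.5% and 17.3%, against 16.1% and 11.1%. The cluster led by St8sia6 held 48 and 108 cells, against 90 and 53. The anti-PD-1 library was also the shallowest. The part of these differences in the result was not tested.

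The lower median with anti-PD-1 was also found with T cells placed by UMIs, while the number of calls varied. Another placement changed the direction of the summed member level. When T cells were placed by their own Cd4, Cd8a and Foxp3 UMIs in place of clusters, conventional CD4 T cells had Ifih1 (130 TMM-CPM in the combination and 64.7 in anti-PD-1, against 110.1 and 139 in PBS) and Ifit3 (136 and 64.0, against 119.1 and 119.1) called lower with anti-PD-1 (edgeR adjusted p 0.024 and 0.044; 0.368% of 10867 genes called). The median log2 fold change of the members was then -0.31, with 3 of 35 above 0. With interferon genes kept in the clustering 0 were called, and the summed member level with anti-PD-1 then lay above PBS. In that setting the difference of Ifit1 between the treated libraries also changed sign. With repeated barcodes kept 11 were called. DESeq2 called 0 against PBS.

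Regulatory T cells had 0 members called with the combination (edgeR; 1 at an unadjusted p under 0.05, 0.938% of 11413 genes called) and 2 called higher with anti-PD-1 (2.23% of genes called). Rsad2 had 65.1 TMM-CPM in the combination and 97.0 in anti-PD-1, against 72.0 and 51.2 in PBS (0.67, edgeR adjusted p 0.020). Isg20 had 184 TMM-CPM in the combination and 261 in anti-PD-1, against 196 and 174 in PBS (0.50, edgeR adjusted p 0.042). In both genes anti-PD-1 was highest and the combination lay within the PBS range. Without PBS 2 the log2 fold change of Rsad2 was 0.43. For anti-PD-1, 0 members were called with DESeq2, with no filter on low counts, with interferon genes or low-UMI clusters kept, at a higher clustering resolution, without doublet removal, with repeated barcodes kept, and with T cells placed by UMIs, and 1 with sums thinned to equal totals. For the combination against anti-PD-1, 0 were called (7 at an unadjusted p under 0.05, 0.648% of genes called by edgeR).

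The remaining classes had few or no calls. In CD8 T cells Isg20 was the one member called, with the combination (63.2 TMM-CPM in the combination and 51.8 in anti-PD-1, against 42.4 and 46.2 in PBS, edgeR adjusted p 0.027), where 1.91% of 14587 genes were called. With anti-PD-1 0 were called in CD8 T cells (6 at an unadjusted p under 0.05, 2.21% of genes called by edgeR), and between the treated libraries 0 (10 unadjusted, 0.658% of genes called). In NK cells Ifit1 was called with the combination (19.5 TMM-CPM in the combination and 12.2 in anti-PD-1, against 10.8 and 12.3 in PBS, edgeR adjusted p 0.025; 1.73% of genes called). Ifi27l2a was called there with anti-PD-1 (67.4 TMM-CPM in the combination and 69.7 in anti-PD-1, against 46.4 and 51.5 in PBS, edgeR adjusted p 0.039; 1.31% of genes called), and 0 between the treated libraries (4 unadjusted, 1.39% of genes called). DESeq2 called 0 in NK cells and 1 in anti-PD-1 CD8 T cells. With repeated barcodes kept, CD8 T cells had 3 called with the combination and 1 with anti-PD-1, and NK cells 0 with anti-PD-1 and 2 between the treated libraries.

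B cells, with 19 members tested, had 0 called in the combination, in anti-PD-1 and between them (3, 1 and 1 at an unadjusted p under 0.05; 0.269%, 0.239% and 0.254% of 6696 genes called by edgeR), and DESeq2 called 0. Neutrophils, with 32 members tested, likewise had 0 called (9, 13 and 0 unadjusted; 0.0349%, 0.105% and 0.0698% of 5733 genes called by edgeR), and DESeq2 called 0. Of their members, 30 were above 0 in each comparison with PBS, with a median log2 fold change of 0.52 for the combination and 0.73 for anti-PD-1. The PBS neutrophils themselves stood apart, at 7899 and 5085 TMM-CPM summed over members, and their neutrophil markers (5 genes) summed to 42850 CPM in the combination and 51170 CPM in anti-PD-1, against 39980 and 30400 CPM in PBS. The neutrophil cluster led by Cxcl3 held 35 cells in the combination and 33 in anti-PD-1, against 40 in PBS 1 and 116 in PBS 2. The cluster led by S100a9 held 146 and 107, against 95 and 78. On plain CPM the members summed to 8714 and 10009, against 7621 and 4930. With equal cluster weights they summed to 8271 and 9619 CPM, against 7555 and 5861 CPM. The part of the clusters in the result was not tested. A difference of the size of that between the PBS libraries was not detectable here.

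CD45-negative cells had almost no keratin or Epcam RNA. The 4 epithelial markers summed to 0.12 CPM in the combination and 0.41 CPM in anti-PD-1, against 0.19 and 0.39 CPM in PBS, while 4 mesenchymal markers summed to 2229 and 1931, against 3341 and 2866 CPM. Tumour cells and stroma could not be told apart by these markers. Col3a1, Col1a1 and Dcn were among the leading genes of a CD45-negative cluster. The part of the mesenchymal markers in the calls of this class was not tested. Stat2 was called higher with the combination (57.6 TMM-CPM in the combination and 54.3 in anti-PD-1, against 42.1 and 41.2 in PBS, edgeR adjusted p 0.014; 2.78% of 15126 genes called). With anti-PD-1 Zbp1 (122 TMM-CPM in the combination and 133 in anti-PD-1, against 104 and 85.8 in PBS), Oas3 (5.92 and 7.63, against 2.58 and 4.91) and Ifi35 (45.1 and 59.6, against 42.9 and 45.1) were called higher (edgeR adjusted p 0.013, 0.020 and 0.025; 5.14% of genes called). Without PBS 1 the log2 fold change of Oas3 was 0.63, against 1.1 with both. Between the treated libraries Ifi27l2a (28.7 TMM-CPM in the combination and 48.9 in anti-PD-1, with 36.9 and 38.6 in PBS) and Oasl2 (48.8 and 67.5, with 56.4 and 60.7) were lower in the combination (edgeR adjusted p 0.00038 and 0.043; 3.91% of genes called). DESeq2 called 0 members in these cells. With repeated barcodes kept, 4 were called with the combination.

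Ifi27l2a kept 1 direction over the classes where the anti-PD-1 library was compared, but not with the combination against PBS. With anti-PD-1 against PBS its log2 fold change was above 0 in 10 of 10 classes, from 0.25 to 1.1, whereas with the combination it was above 0 in 4 of 10, and between the treated libraries it was below 0 in 10 of 10. The classes come from the same libraries and are not replicates. Both comparisons with 1 direction rest on the anti-PD-1 library, which was the shallowest and shared most barcodes with PBS. The part of depth and shared barcodes was not tested. The summed level of all members in conventional CD4 T cells was 4560 TMM-CPM in the combination and 3812 TMM-CPM in anti-PD-1, against 4003 and 4028 TMM-CPM in PBS. Without Ifi27l2a it was 2985 TMM-CPM in the combination and 2052 TMM-CPM in anti-PD-1, against 2480 and 2727 TMM-CPM in PBS, so the sum was lowest with anti-PD-1 both times and further below PBS without Ifi27l2a. In regulatory T cells the sum was 6482 TMM-CPM in the combination and 8920 TMM-CPM in anti-PD-1, against 7083 and 6038 TMM-CPM in PBS, and without Ifi27l2a 3127 and 3626 TMM-CPM, against 3175 and 2957 TMM-CPM.

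Whether a class difference sat in most cells or few was described per cell, with each cell thinned to 2000 UMIs, Ifi27l2a left out, and the share of cells above the 95th percentile of PBS cells (the cut) counted with an exact 95% interval. Intervals cover counting error only, and a cell above the cut is one end of a range, not a type. In double-negative T cells, 8.58% of combination cells (interval 6.88 to 10.5) and 7.24% of anti-PD-1 cells (5.39 to 9.48) were above the cut of 16 UMIs, against 4.79% and 4.21% in PBS. In conventional CD4 T cells, 6.52% of combination cells (4.88 to 8.50) and 2.17% of anti-PD-1 cells (1.13 to 3.76) were above 21 UMIs, against 5.27% and 4.70% in PBS. The anti-PD-1 share was thus the lowest in conventional CD4 T cells, and in double-negative T cells both treated shares were the highest. Between 1 and 11 double-negative T cells and between 0 and 3 conventional CD4 T cells per library lay at the cut. Shallower cells were left out, 17, 27, 6 and 3 double-negative and 35, 96, 11 and 15 conventional CD4 T cells in combination, anti-PD-1, PBS 1 and PBS 2. Without thinning, the shares, taken on CPM, were 9.56% and 7.68%, against 5.41% and 4.44%, in double-negative T cells, and 6.61% and 2.62%, against 5.16% and 4.96%, in conventional CD4 T cells.

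**Figure D4:**
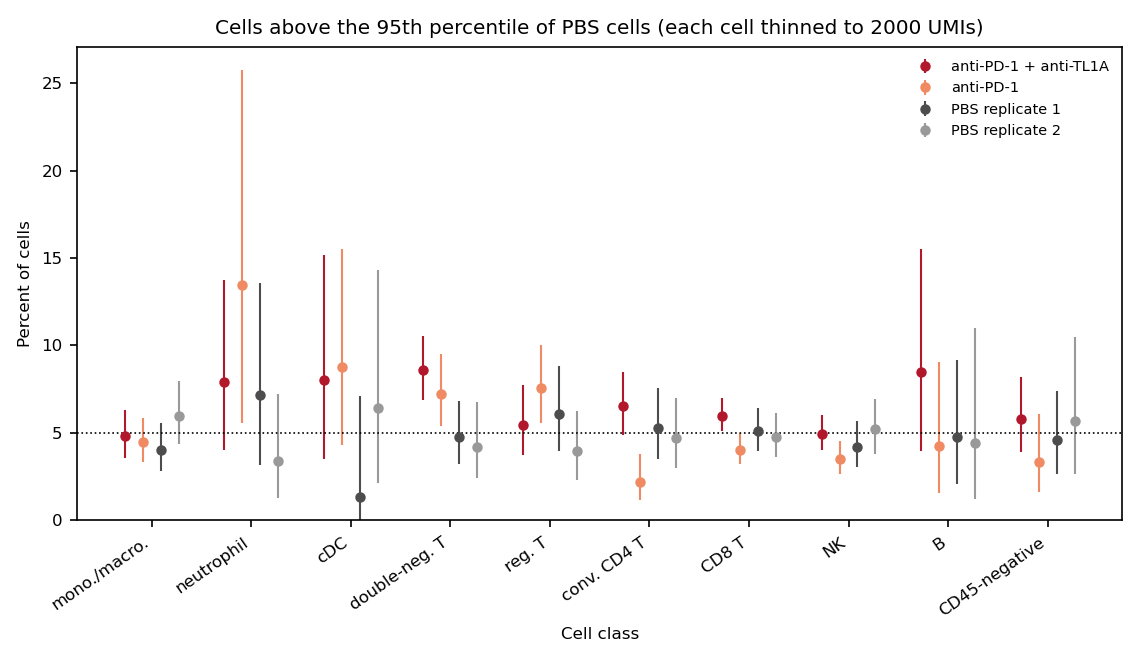
Percent of cells (y axis) whose member UMIs, without Ifi27l2a and thinned to 2000 UMIs, exceeded the 95th percentile of PBS cells of their class, by class and library; bars are exact 95% intervals for counting error. In double-negative T cells the combination is the highest library at 8.58%, and in conventional CD4 T cells anti-PD-1 is the lowest at 2.17%.

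In monocytes and macrophages the share above the cut of 24 UMIs did not separate the groups: it was 4.80% in the combination and 4.46% in anti-PD-1, against 4.02% and 5.97% in PBS (unthinned 4.08% and 4.09%, against 4.22% and 5.96%). The share of cells with 0 member UMIs did, at 2.59% in the combination and 4.28% in anti-PD-1, against 6.74% and 6.11% in PBS. The mean was 8.48 member UMIs per cell in the combination and 7.83 in anti-PD-1, against 6.98 and 7.59 in PBS. In this class 12, 49, 7 and 2 cells were too shallow, in combination, anti-PD-1, PBS 1 and PBS 2, and median depth before thinning was 8125 and 5961 UMIs, against 10628 and 12243.

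Members also differed in how far their UMIs gathered in the cells highest in the other members. For each member, PBS cells of a class were ordered by the UMIs of the other members, and the percent of the member's UMIs held by the highest 10% of cells was taken (members with at least 50 thinned UMIs). Ifit3 had a median of 75% over 8 classes (68.4 to 95), its copy Ifit3b 72.8% over 2 classes, Rsad2 70.5% and Ifit1 67.3%. Isg15 had 58.5% over 9 classes (32 to 62). Irf7 (35.4%), Zbp1 (28.6%), Stat2 (28.1%) and Bst2 (24.4%) had less of their UMIs in these cells. Irf9 was closest to an even share, at 15.7% (11.7 to 19). A low value does not show how many cells carried a member. Not all effectors of RNA defence were as gathered: Oas1a had 24.1%, Oas2 29.2%, Isg20 35.8% and Oas3 36.5%. Over all members, 10 had a median above 50% and 5 below 25%. These are descriptions over cells of shared libraries.

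**Figure D5:**
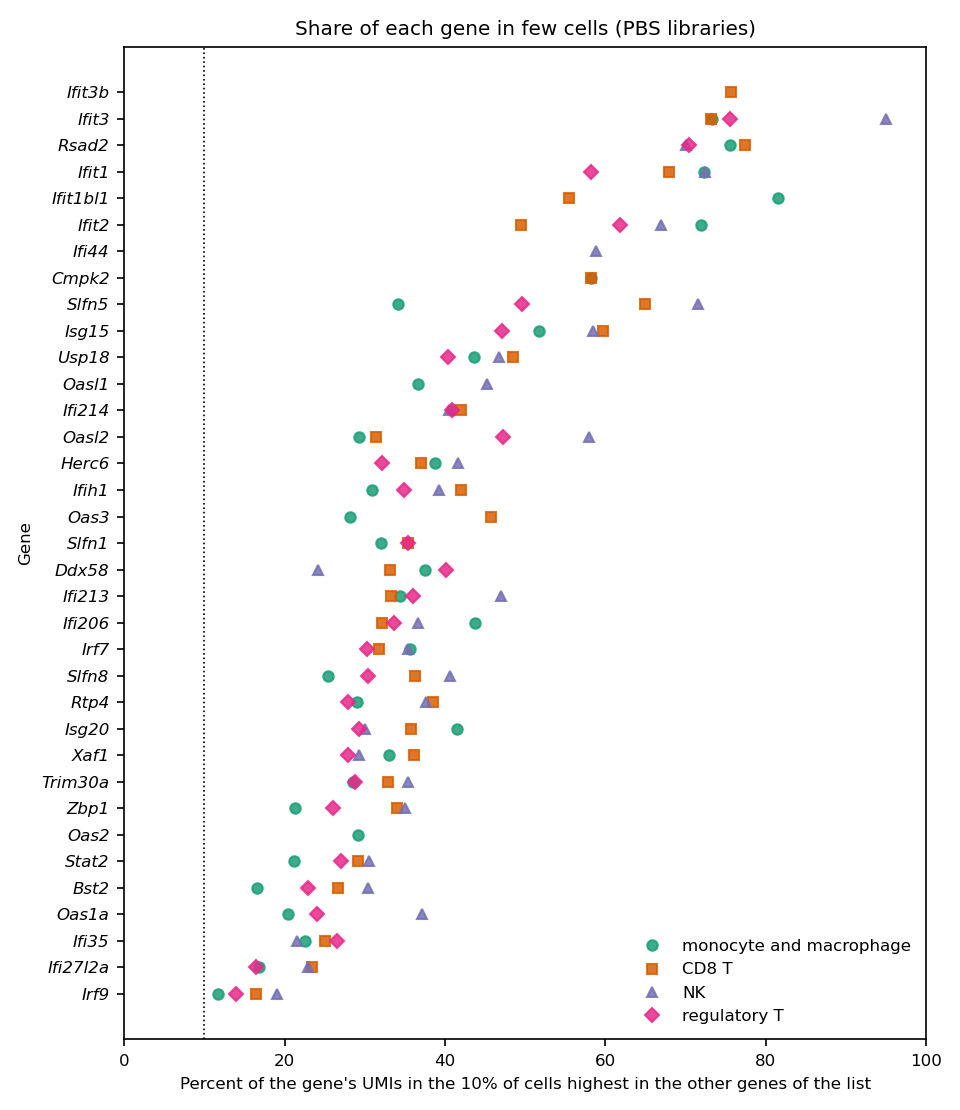
Percent of each member's UMIs (x axis) held by the 10% of PBS cells with the most UMIs of the other members, thinned to 2000 UMIs, with 1 marker per class for 4 classes. Ifit3, Rsad2 and Ifit1 sit high and Irf9 sits low, near the dotted line at 10% that an even spread gives.

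The ligands, receptors and signalling genes were read from the same fits. Type I ligand RNA was low, with at most 41 UMIs per gene over all libraries. Over all kept cells Ifnb1 had 5 UMIs in the combination and 2 in anti-PD-1, against 1 and 0 in PBS, and 13 of 14 genes named Ifna had 0 UMIs in every library. Ifnb1 in monocytes and macrophages had 4 and 2 UMIs, against 0 and 0. Ifnk had 10 UMIs in the combination and 8 in anti-PD-1, against 15 and 8 in PBS, and Ifnz had 9 and 8, against 13 and 5. No fold was taken of these counts. The receptor genes Ifnar1 and Ifnar2 were called in no class; in monocytes and macrophages Ifnar1 had 94.2 TMM-CPM in the combination and 79.7 in anti-PD-1, against 102 and 92.3 in PBS, and Ifnar2 had 213 and 252, against 223 and 206. Ifng, by contrast, had 16991 UMIs in the combination and 13386 in anti-PD-1, against 7554 and 9030 in PBS, from 9930, 9917, 6074 and 5509 cells. In CD8 T cells Ifng had 502 TMM-CPM in the combination and 736 in anti-PD-1, against 339 and 399 in PBS (anti-PD-1 0.997, edgeR adjusted p 0.0066; combination 0.44, edgeR adjusted p 0.14).

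In monocytes and macrophages 8.86% of all genes were called with the combination and 14.7% with anti-PD-1. Genes that respond preferentially to interferon-gamma were also higher in this class with treatment. Of 24 tested there, 18 were called higher and 0 lower with each treatment, among them Cd274 (PD-L1; 374 TMM-CPM in the combination and 335 in anti-PD-1, against 193 and 208 in PBS) and the guanylate-binding protein Gbp2 (817 and 746, against 374 and 445). Irf1, a factor induced by interferon-gamma, had 333 TMM-CPM in the combination and 313 in anti-PD-1, against 195 and 227 in PBS (edgeR adjusted p 5.546e-08 and 6.939e-06). Cd274, Gbp2 and Irf1 were separate from PBS in both treated libraries. Socs1, an inhibitor of this signalling, had 45 TMM-CPM in the combination and 24.0 in anti-PD-1, against 16.1 and 15.4 in PBS (combination against anti-PD-1 0.91, edgeR adjusted p 1.179e-05). Another 48 interferon-stimulated genes outside the members had 47 tested, with 14 called higher with the combination, and 14 higher and 1 lower with anti-PD-1; Ifitm3, which blocks virus entry, had 2242 TMM-CPM in the combination and 3296 in anti-PD-1, against 1503 and 1569 in PBS.

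Of 25 gamma-preferring genes tested in CD45-negative cells, 15 were called higher with the combination and 9 with anti-PD-1, beside 1 and 3 of 34 members tested. Over all genes of that class, 2.78% and 5.14% were called. Cd274 had 106 TMM-CPM in the combination and 83.5 in anti-PD-1, against 49.4 and 48.7 in PBS (combination adjusted p 3.638e-12 by edgeR). In cDCs 6 of 24 gamma-preferring genes were called higher with the combination, beside 7 of 35 members, and in double-negative T cells 5 of 23, beside 10 of 35. The shares of all genes called with the combination were 1.18% in cDCs and 2.42% in double-negative T cells. In CD8 T cells 1 gamma-preferring gene was called higher and 1 lower with the combination, where 1.91% of genes were called. Counted by gene, 58.8% of the gamma-preferring genes and 53.3% of the members had the ISRE core in a promoter. This motif thus did not separate the lists, whereas the GAS core did (52.9% and 13.3% of genes).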

How the data were processed

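The deposited matrices hold raw UMI counts per gene and barcode for 4 single-cell libraries. Per the file headers the writing program was Cell Ranger 7.1.0; the build mm10 and Cell Ranger 3.0.2 are named in the submitters' processing notes. The handling of intronic reads is not stated in the sources at hand. The members and all gene lists were chosen with earlier results of these data known.

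Kept barcodes had 200 or more genes and less than 15% mitochondrial counts. The doublet caller marked at most 0.023% of cells by its own threshold, so the highest-scoring cells were removed at 0.8% per 1000 barcodes (975 in the combination, 1364 in anti-PD-1, 354 in PBS 1 and 324 in PBS 2). Cells were clustered with scanpy 1.11.5 and Leiden (igraph 0.11.9) on 2000 variable genes, none of them an interferon gene, with 30 and then 20 principal components and 20 neighbours at resolution 1, then 1.5 for T and other immune cells and 0.8 for CD45-negative cells. Gates took 200 CPM of Ptprc and Cd3e, and T cell classes 100 CPM of Cd8a, Cd4 and Foxp3, set after the data were seen. Clusters with a median under 2000 UMIs (3.84% of cells in the combination, 17.5% in anti-PD-1, 4.77% and 8.17% in PBS) or with markers of mixed lineages (7.51%, 4.07%, 4.84% and 6.21%) were left out.

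Class sums of each library were tested with edgeR 4.0.16 (R 4.3.3; TMM, minimum count 10, robust quasi-likelihood fit, Benjamini-Hochberg over all genes of a class and comparison, threshold 0.05) in classes with at least 50 cells per library, the tests being those of the stated design. The fit had 1 residual degree of freedom, from the PBS pair, whose summed counts differed by more than sampling noise (chi-square 49.7 per degree of freedom). The combination against anti-PD-1 compares those libraries only. DESeq2 1.42.0, other filters and other clusterings were alternatives. Named genes were 12 fixed members in every description of levels, up to 6 called members per class and comparison, and up to 3 genes of each related list. A gene of the related lists is not reported here. Positions are GRCm38. The edgeR fit was tested on simulated counts.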

Additional observations from a re-analysis of the deposited data

Results flagged for a closer look

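Under anti-PD-1 against PBS, the effect on several members differed between T cell classes when a class-by-treatment term was tested with edgeR across all genes; the term was chosen after the data were seen. Ifit3, the RNA-binding partner of Ifit1, had a log2 fold change that was higher by 1.68 ± 0.23 (SE) in regulatory T cells than in conventional CD4 T cells (edgeR adjusted p 3.711e-07). The same difference was 1.28 for the exonuclease Isg20 (adjusted p 5.538e-05 by edgeR), 1.41 for Ifit2 (0.0016), 1.14 for Rsad2 (0.023), 0.75 for Bst2 (0.024), 0.89 for Ifit1 (0.045) and 0.72 for Isg15 (0.048). These are 7 of the members, where 0.377% of 11949 genes were called, and the median difference over members was 0.55 against -0.0066 over all genes.

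Double-negative T cells set against conventional CD4 T cells gave a difference of 1.73 for Ifit3 (edgeR adjusted p 2.474e-05), 1.74 for Rsad2 (0.0019), 1.27 for Ifit1 (0.0028), 1.4 for Isg20 (0.0037), 1.43 for Ifit2 (0.014) and 1.04 for the RNA sensor Ifih1 (0.014), where 0.185% of 12460 genes were called. For the combination the same terms called 0 members (edgeR; 3 and 10 at an unadjusted p under 0.05, 0.218% and 0.0803% of genes called). Each class of a treatment comes from 1 library, the anti-PD-1 library is the shallowest, and it shares most barcodes with PBS; their part in these differences was not tested. With T cells placed by their own Cd4 and Foxp3 UMIs, Ifih1 was the one member whose effect differed between regulatory and conventional CD4 T cells (1.11, edgeR adjusted p 0.031).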

How the results depend on the processing

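Counts of called members (all by edgeR unless DESeq2 is named) and summed levels were recomputed under each alternative; where the value moved, the cause was not tested. No paired analysis was possible because each treated group has 1 library. Leaving out PBS 1 or PBS 2 leaves no residual degree of freedom, so these are values with no test: the log2 ratio of summed members kept its direction except where it was near 0, ranging from 0.47 to 1.11 in neutrophils with anti-PD-1 and from 0.14 to 0.78 with the combination, from -0.024 to 0.30 in B cells with anti-PD-1, and from -0.13 to 0.10 in regulatory T cells with the combination. Over all classes, 32 pairs were called with the combination, 31 with anti-PD-1 and 13 between the treated libraries.

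With DESeq2 the pairs numbered 1, 7 and 2, of which 1, 6 and 2 were shared. The combination had 1 call in monocytes and macrophages and 0 in CD8, double-negative T, NK, cDC and CD45-negative cells. Anti-PD-1 had 6 in monocytes and macrophages, 1 in CD8 T cells, and 0 in conventional CD4, regulatory T, double-negative T, NK, cDC and CD45-negative cells. Between the treated libraries, conventional CD4 T cells and monocytes and macrophages had 1 each and CD45-negative cells 0. DESeq2 gave no adjusted p for part of the members, 33 of 34 in anti-PD-1 NK cells. With no filter on low counts, the combination had 3 in CD8 T cells, 3 in CD45-negative cells and 0 in monocytes and macrophages; anti-PD-1 had 4 in CD8 T cells and 0 in regulatory T, NK and monocytes and macrophages, 16 in all; between the treated libraries there was 1 each in CD8, double-negative T and CD45-negative cells and 0 in monocytes and macrophages, 6 in all. With DESeq2's size factors in edgeR, NK cells had 0 with either treatment, CD45-negative cells 4 with the combination, and double-negative T and CD45-negative cells 1 each between the treated libraries. With class sums thinned to equal totals, the combination had 3 in cDCs and 4 in CD45-negative cells, anti-PD-1 1 in regulatory T cells and 0 in cDCs, and CD45-negative cells 1 between the treated libraries.

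With interferon genes kept in the clustering, the combination had 3 in CD8 and 0 in double-negative T cells, 21 in all. Anti-PD-1 had 2 in CD8 T cells and 0 in conventional CD4, regulatory T, double-negative T, NK cells and cDCs, 16 in all. Between the treated libraries there were 3 in CD8 T, 0 in conventional CD4 T and 2 in NK cells, and Ifit1 in conventional CD4 T cells turned to -0.046. Summed log2 ratios were then 0.16, -0.0063 and 0.23 in CD8, conventional CD4 and double-negative T cells with the combination, and 0.15, 0.24 and 0.059 in conventional CD4, double-negative T and NK cells with anti-PD-1. At a higher clustering resolution, the combination had 3 in CD45-negative cells; anti-PD-1 had 2 in CD8 and 0 in regulatory T, NK cells and cDCs; between the treated libraries there were 1 in conventional CD4, 1 in double-negative T and 4 in monocytes and macrophages, 8 in all. With low-UMI clusters kept, anti-PD-1 had 1 in CD8 and 0 in regulatory T cells, and CD45-negative cells had 1 between the treated libraries.

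Chosen after the data were seen were the next settings. Without doublet removal, the combination had 1 in cDCs and 3 in CD45-negative cells; anti-PD-1 had 1 in CD8, 4 in conventional CD4, 0 in regulatory T and NK cells, 1 in neutrophils and 0 in cDCs; between the treated libraries conventional CD4, regulatory T and CD45-negative cells had 1 each, 8 in all. Its summed ratios were -0.11 and -0.10 in conventional CD4 T cells with the combination and anti-PD-1, and 0.25, 0.058 and 0.24 in regulatory T, NK and monocytes and macrophages with anti-PD-1. With repeated barcodes kept, the combination had 3 in CD8 T cells, 2 in cDCs and 4 in CD45-negative cells; anti-PD-1 had 1 in CD8, 11 in conventional CD4, 0 in regulatory T, 4 in double-negative T and 0 in NK cells and cDCs; between the treated libraries there were 1 in double-negative T, 2 in NK and 2 in monocytes and macrophages. Its summed ratios were 0.15, -0.043, 0.27 and 0.15 in CD8, conventional CD4, double-negative T and NK cells with the combination, and -0.16, 0.33 and 0.053 in conventional CD4, double-negative T and NK cells with anti-PD-1. Without monocytes and macrophages that held T cell receptor UMIs, 4 were called with the combination and 1 between the treated libraries. With T cells placed by UMIs, CD8 T cells had 3 with the combination and 2 with anti-PD-1, conventional CD4 T cells 2 with anti-PD-1 and 2 between the treated libraries, and regulatory T cells 0 with anti-PD-1.

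With clusters given equal weights over libraries, summed ratios for the combination were 0.059 in CD8, 0.17 in conventional CD4 T, 0.15 in CD45-negative cells and 0.083 in monocytes and macrophages. For anti-PD-1 they were -0.024 in CD8, -0.084 in conventional CD4, 0.26 in double-negative T, -0.034 in NK, 0.060 in CD45-negative cells and 0.11 in monocytes and macrophages. Without each class's highest member, the combination gave 0.16 in CD8, 0.20 in conventional CD4, 0.42 in double-negative T, 0.15 in NK, -0.013 in CD45-negative cells and 0.26 in monocytes and macrophages. Anti-PD-1 then gave 0.0077, -0.34 and 0.24 in CD8, conventional CD4 and regulatory T cells, 0.027 in CD45-negative cells and 0.28 in monocytes and macrophages. Taking the percentile from PBS 1 alone gave shares above it of 5.34% in regulatory T cells and 15.8% in cDCs with anti-PD-1 and 16.0% in cDCs with the combination. PBS 2 alone gave 2.54% in NK cells with anti-PD-1, 3.59% in CD45-negative cells with the combination, and 3.46% and 2.79% in monocytes and macrophages with the combination and anti-PD-1. The longer ISRE matched 33.3% of the members. Of 63 single gene results called against PBS, 63 kept their direction without either PBS library. They were picked as called against these same PBS libraries, which left little room for a change of direction. The count is therefore no check of the calls. Depth limits the lowest members and the anti-PD-1 neutrophils, of which 52 of 140 reached 2000 UMIs.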

Other observations

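Classes with too few cells for a test also held member RNA. In plasmacytoid dendritic cells (30 cells in the combination, 34 in anti-PD-1, 17 in PBS 1 and 15 in PBS 2) Isg15 had 21 UMIs in the combination and 6 in anti-PD-1, against 1 and 1 in PBS, or 81.4 and 31.9 CPM, against 6.23 and 5.79 CPM. In mature regulatory dendritic cells (57 cells in the combination, 63 in anti-PD-1, 36 and 45 in PBS) Ifit3 had 24 UMIs in the combination and 1 in anti-PD-1, against 3 and 2 in PBS. In mast cells (31 cells in the combination, 43 in anti-PD-1, 16 and 14 in PBS) Stat2 had 6 UMIs in each treated library and 0 in each PBS library. These genes were chosen after their values were seen, and no test was run on them.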
